A study of Homo sapiens with 8 samples.

Results

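The ZNF genes of chromosome 19 were described in 4 lists of TAZ binding peaks. The members were the protein-coding genes on chromosome 19 whose symbol starts with ZNF and a number in GENCODE version 44, 249 of 20033 protein-coding genes in all. A member had a promoter peak where the summit of a peak lay within 1 kb of a start of transcription (TSS) annotated for any of its transcripts. The lists came from chromatin immunoprecipitation and sequencing (ChIP-seq) with a TAZ antibody in MCF10A, a line of human mammary epithelium that is not transformed. These cells were transduced with TAZ-4SA, an activated TAZ whose expression is switched on by doxycycline (Dox). Cells received no Dox, or 0.05 µg/ml Dox for 24, 48 or 72 h. Each condition had 1 TAZ library and 1 IgG library and a single deposited list, so every comparison of times sets 1 library against another, and no test across replicates was possible. All 4 conditions carry the transgene, and the sources used here do not say whether the transduced cells were 1 clone or whether IgG was used as the control in peak calling.

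Most ZNF genes of chromosome 19 encode C2H2 zinc finger proteins, and many of these begin with a KRAB domain. Such proteins bind DNA through a tandem array of fingers, each held together by a pair of cysteines and a pair of histidines, and recruit the co-repressor TRIM28 (KAP1) and the histone methyltransferase SETDB1 through the KRAB domain. They are best known as repressors of transposable elements. The genes arose by tandem duplication and lie side by side in clusters, and the finger array is usually encoded by the last, 3′ exon. TAZ does not bind DNA itself and is brought to it mainly by the TEAD factors, whose core motif reads ACATTCC or GCATTCC. The reverse complements are GGAATGT and GGAATGC.

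In order of time the lists held 2431 (no Dox), 2469 (24 h), 11767 (48 h) and 38667 (72 h) peaks, of which 144, 60, 242 and 1367 lay on chromosome 19. The median summit held 20, 24, 36 and 32 fragments. The lists do not give total read numbers. Background coverage, the lowest background in a list, was 1.49, 1.42, 2.84 and 2.01 fragments in the same order. The interval given after a share is a 95% exact binomial interval, and that after a fold enrichment is a 95% Poisson interval of the summit fragments. Both cover counting error only.

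At 72 h, TAZ summits inside the 3′ exons of 6 of 7 member genes lay within 75 bp of a TEAD core. Each of these 6 exons holds several copies of the core, so the distance is given as a description. The 151 bases around the 72 h summit are shown for the 7 members with a 3′ exon summit over 1 kb from any TSS. These bases are shown because the motif lies inside the codons of the fingers. Each is read 5′ to 3′ on the strand of the gene, on hg38, with matches to the TEAD core in capitals: ZNF565 (chr19:36182768-36182918, minus strand), ZNF607 (chr19:37699211-37699361, minus strand), ZNF699 (chr19:9295581-9295731, minus strand), ZNF121 (chr19:9566470-9566620, minus strand), ZNF562 (chr19:9653109-9653259, minus strand), ZNF283 (chr19:43848022-43848172, plus strand) and ZNF714 (chr19:21117777-21117927, plus strand).
ZNF565: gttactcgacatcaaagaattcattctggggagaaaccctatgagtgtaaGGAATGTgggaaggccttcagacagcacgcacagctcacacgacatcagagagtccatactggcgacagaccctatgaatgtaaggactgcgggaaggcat
ZNF607: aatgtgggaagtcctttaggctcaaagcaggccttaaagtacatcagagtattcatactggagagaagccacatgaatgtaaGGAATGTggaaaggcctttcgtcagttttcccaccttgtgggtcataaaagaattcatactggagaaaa
ZNF699: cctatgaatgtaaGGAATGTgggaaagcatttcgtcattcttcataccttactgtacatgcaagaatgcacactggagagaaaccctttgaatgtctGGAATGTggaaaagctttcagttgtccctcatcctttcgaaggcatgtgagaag
ZNF121: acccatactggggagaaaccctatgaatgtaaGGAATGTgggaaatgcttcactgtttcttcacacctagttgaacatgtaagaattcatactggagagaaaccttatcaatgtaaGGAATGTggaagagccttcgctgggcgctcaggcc
ZNF562: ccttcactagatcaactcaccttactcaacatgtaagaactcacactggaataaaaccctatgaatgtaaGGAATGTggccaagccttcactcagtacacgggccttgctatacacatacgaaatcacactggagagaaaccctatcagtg
ZNF283: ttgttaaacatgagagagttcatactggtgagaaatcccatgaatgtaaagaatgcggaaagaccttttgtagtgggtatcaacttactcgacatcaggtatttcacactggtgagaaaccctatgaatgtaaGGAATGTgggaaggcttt
ZNF714: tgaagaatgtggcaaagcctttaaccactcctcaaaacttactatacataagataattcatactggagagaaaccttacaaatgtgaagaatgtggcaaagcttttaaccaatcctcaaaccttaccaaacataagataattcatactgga

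All 8 matches in these windows lay in 6 of the 7 members. In each of them the core began at the last base of a codon and ran on through the Glu and Cys codons at the start of a finger. The word gaatgtaaGGAATGTgg was shared by ZNF607, ZNF699, ZNF121, ZNF562 and ZNF283. ZNF714 had no match in its window or in the whole exon. Across all members, the coding sequence held 446 matches to the TEAD core, and 372 of them (83.4%) lay in this orientation and frame over Glu-Cys codons, spread over 121 of the 249 members. Most matches within coding sequence were therefore part of the finger code itself. Introns were not searched.

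Promoter summits looked different. The 151 bases around the summit are shown on hg38 for the pair of strongest promoters at 72 h, ZNF554 and ZNF628, and for ZNF581, ZNF580 and ZNF579, which are 3 of the 4 strongest without Dox. ZNF837, the other of these 4, is not printed because its summit lay 226 bp inside the transcribed sequence. Capitals mark ACTACAA, which reads TTGTAGT on the other strand and is the core of the ZNF143 motif, in ZNF554 and ZNF628. They mark CCGGAAG, which reads CTTCCGG on the other strand and is the core of the ETS motif, in ZNF580 and ZNF579. ZNF581 had no match to either. The windows are ZNF554 (chr19:2819745-2819895, plus strand), ZNF628 (chr19:55476429-55476579, plus strand), ZNF581 (chr19:55643528-55643678, plus strand), ZNF580 (chr19:55634849-55634999, plus strand) and ZNF579 (chr19:55580870-55581020, minus strand), read on the strand of the gene.
ZNF554: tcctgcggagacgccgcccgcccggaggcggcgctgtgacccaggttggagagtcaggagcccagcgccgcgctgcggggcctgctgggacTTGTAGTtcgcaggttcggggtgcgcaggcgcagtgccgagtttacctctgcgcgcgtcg
ZNF628: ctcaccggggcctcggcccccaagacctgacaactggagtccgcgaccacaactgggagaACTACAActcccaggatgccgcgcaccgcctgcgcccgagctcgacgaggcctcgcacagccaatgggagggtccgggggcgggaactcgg
ZNF581: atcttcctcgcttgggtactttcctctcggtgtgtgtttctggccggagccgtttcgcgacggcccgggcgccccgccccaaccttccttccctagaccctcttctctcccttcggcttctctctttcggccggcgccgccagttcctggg
ZNF580: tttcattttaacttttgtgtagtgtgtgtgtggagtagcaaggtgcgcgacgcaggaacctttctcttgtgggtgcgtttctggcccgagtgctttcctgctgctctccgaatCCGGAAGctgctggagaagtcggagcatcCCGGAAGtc
ZNF579: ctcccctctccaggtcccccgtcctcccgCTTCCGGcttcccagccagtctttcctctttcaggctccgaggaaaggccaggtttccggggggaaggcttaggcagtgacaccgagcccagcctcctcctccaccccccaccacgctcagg

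None of these 5 windows held a TEAD core or the AP-1 consensus TGACTCA. The GC-rich sequence of the ZNF promoters stood against the repeated, codon-phased sequence of the 3′ exons. The RefSeq table of promoter sequences held 218 of the 249 members.

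The first question was when TAZ was called at the promoters of these genes. Without Dox 23 members (9.24%, 5.95 to 13.5) had a promoter peak, while 8.45% of all protein-coding genes had one. At 24 h no member had one, where 1.54% of all genes did, and at 48 h again none did, where 5.11% of all genes did. The exact interval of 0 in 249 genes reaches 1.47%, just under the share of all genes at 24 h, and a floor of 3 counts in 249 is 1.2%. At 72 h 133 members (53.4%, 47.0 to 59.7) had a promoter peak, and the share over all protein-coding genes was also 53.4%. The shares without Dox and at 72 h thus lay at the level of all genes, while at 48 h the share of all genes lay above the interval of the members, and at 24 h only just above it.

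The 266 ZNF genes of other chromosomes numbered 36 with a promoter peak without Dox (13.5%). At 24 h 7 of them had one (2.63%), at 48 h 16 (6.02%), and at 72 h 192 (72.2%, 66.4 to 77.5). Of the 1227 other protein-coding genes of chromosome 19, 7.82, 1.79, 3.67 and 49.4% had one at the 4 times. Promoter peaks at 24 and 48 h were therefore found at ZNF genes elsewhere and at other genes of the same chromosome. Of the 107 other protein-coding genes inside the member clusters, 5, 1, 1 and 43 had one at the 4 times.

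**Figure D1:**
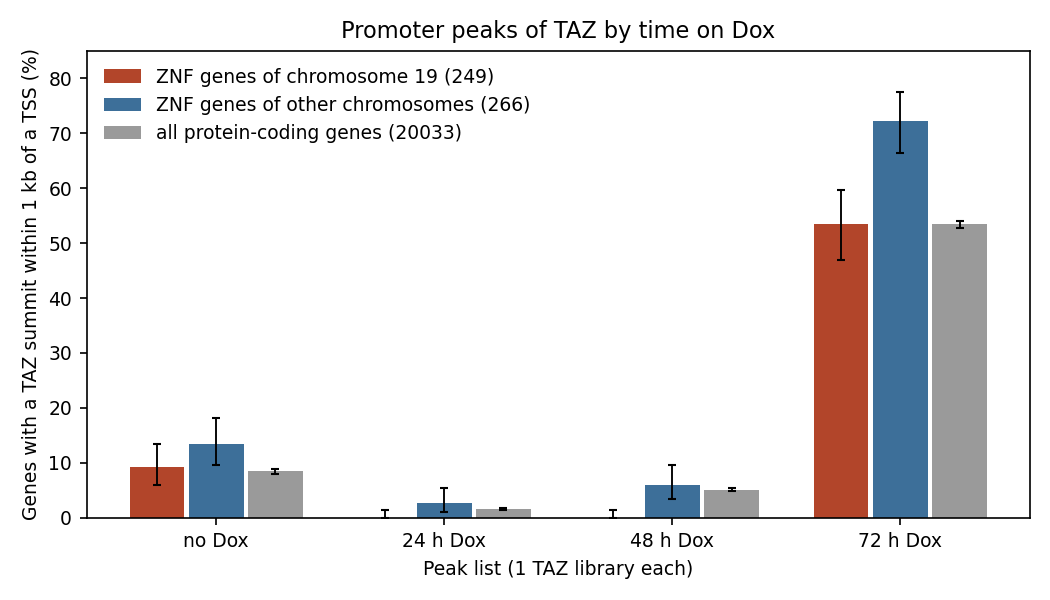
The share of genes with a TAZ summit within 1 kb of a TSS (%) is plotted for each peak list, from no Dox to 72 h Dox, for ZNF genes of chromosome 19, ZNF genes of other chromosomes and all protein-coding genes. Error bars are 95% exact binomial intervals; ZNF genes of chromosome 19 stood at 9.24%, 0, 0 and 53.4%, with no bar at 24 and 48 h.

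By time, the members fell into 3 classes. There were 110 with a promoter peak at 72 h alone, 23 with one both without Dox and at 72 h, and 116 with none in any list. All 23 members bound without Dox were called again at 72 h (85.2 to 100%), against 96.3% of all genes bound without Dox. No member lost its promoter peak at 72 h. At 24 and 48 h 0 of the 23 were called, where 9.34 and 15.8% of all genes bound without Dox were.

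The nearest summit of any kind was far from most members until 72 h. Its median distance from a TSS of a member was 332, 713 and 230 kb in the first 3 lists (no Dox, 24 h, 48 h) and 0.228 kb in the 72 h list. At 24 and 48 h the members closest to the 1 kb limit lay outside it. ZNF628 had a summit 1577 bp from its TSS at 24 h, with a fold enrichment of 7.14, and 1619 bp from it at 48 h, with 10.5. ZNF121 and ZNF699 had summits 1160 and 1630 bp away at 48 h, with fold enrichments of 5.41 and 6.27. ZNF296 had a summit 2719 bp away at 24 h, with a fold enrichment of 7.71. Without Dox the member farthest inside the limit was ZNF571 at 428 bp, and the nearest outside was ZNF296 at 2747 bp, with a fold enrichment of 29.8. At 72 h the members just inside the limit were ZNF260 at 442 bp, ZNF524 at 476 bp and ZNF57, whose summit lay a little over 500 bp away, and the nearest outside were ZNF121 at 1198 bp, ZNF358 at 6426 bp and ZNF625 at 6485 bp. Few members therefore lay near the limit.

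At 72 h the summits sat close to the start sites. The median distance was 51 bp over the 133 members and 88 bp over all protein-coding genes with a promoter peak. Of the members 74.4% had the summit within 100 bp, against 53.9% of all such genes, and 72.9% had it upstream of the TSS, against 63.5%. The peaks were 411 to 2500 bp wide, with a median of 820 bp, and 1007 bp over all genes. Without Dox the median distance was 92 bp over the 23 members and 79.5 bp over all genes with a promoter peak.

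Several promoters are shared, so members were not independent. The 23 members bound without Dox had 21 distinct peaks, since ZNF540 with ZNF571, and ZNF490 with ZNF791, lie head to head over a single peak. At 72 h 133 members had 126 distinct peaks. In 17 members the summit of the strongest peak also lay within 1 kb of a TSS of another member. In 22 it lay within 1 kb of a TSS of a gene that is no member. Without the peaks shared with non-members, 113 members remained at 72 h, since 2 of the 22 kept another promoter peak, and 21 remained without Dox.

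The strength of binding was read from the fold enrichment, which the caller gives as the ratio of fragments over a summit to the local background, with 1 added to both. It is a value within each list and was not scaled across lists. Over member promoters its median was 5.64 without Dox, with a range over genes from 3.6 to 22.4. At 72 h the median was 6.99, with a range over genes from 2.6 to 20.2. Over all genes with a promoter peak the medians were 6.06 and 6.78. At 72 h ZNF554 led with 20.2 (16.3 to 24.8), from 91 fragments over a background of 3.55, and ZNF628 followed with 17.7 (14.3 to 21.5) from 95 fragments. ZNF45 had 16.8, ZNF837 16.3, ZNF524 15.8, ZNF444 and ZNF180 15.4 each, ZNF614 and ZNF175 14.9 each, and ZNF181 14.5. The intervals of neighbours in this order overlapped. The weakest was ZNF57 at 2.6, from 17 fragments over a background of 5.92.

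Members bound without Dox were also the stronger ones at 72 h. Their median fold enrichment at 72 h was 9.79, and it was 6.75 over the 110 members bound at 72 h alone. The same medians over all protein-coding genes were 10.0 and 6.37, so the members followed the whole series here.

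Without Dox the strongest promoters were those of a group at the far end of the long arm. ZNF581 had a fold enrichment of 22.4 (17.4 to 28.6), ZNF837 21.4 (17.6 to 25.7), ZNF580 19.8 (14.9 to 25.7) and ZNF579 14.4 (11.4 to 17.9). ZNF579, ZNF580 and ZNF581 lie within cluster 9 and ZNF837 within cluster 10. ZNF461 had 12.4, ZNF846 11.0, ZNF558 9.09, ZNF490 and ZNF791 7.36 from their shared peak, and ZNF101 7.23.

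The promoter sites of the 23 members bound without Dox, 21 distinct peaks, were then compared with the peak over the same site at 72 h. Counts are over members, so the peak shared by ZNF540 and ZNF571 and that shared by ZNF490 and ZNF791 entered once for each member. The fold enrichment was higher at 72 h in 14 members and lower in 9, with a median ratio of 1.35 of 72 h to no Dox. Over all protein-coding genes with a promoter peak in both lists, the strongest promoter peak of each list was compared, whether or not at the same site. The value was higher at 72 h in 1104 of these genes and lower in 526, and the median ratio was also 1.35. By that measure the members again had 14 higher and 9 lower, with a median ratio of 1.35. Summits lay within 100 bp of each other in 15, and the largest shift was 639 bp, in ZNF524. Of the 10 strongest without Dox, 9 had a lower value at 72 h, and all of the other 13 had a higher one. The strongest without Dox were also chosen on that value, so this split is given as a description.

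The counting intervals did not overlap in 9 of the 23 members. The same count is not given for all protein-coding genes, so members are not set against them here. Values at 72 h were higher in ZNF524 (15.8 at 72 h, 6.7 without Dox), ZNF444 (15.4 and 5.64), ZNF234 (12 and 4.89), ZNF460 (10.7 and 3.94), ZNF529 (10.6 and 4.79) and ZNF324B (9.75 and 4.15). They were lower at 72 h in ZNF581 (11.3 at 72 h, 22.4 without Dox), ZNF558 (3.6 and 9.09) and ZNF580 (3.97 and 19.8). ZNF460, ZNF529 and ZNF324B were named for this split after their values were seen.

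At ZNF580 the strongest promoter peak at 72 h was another one, with a fold enrichment of 6.32. The fold enrichment moves with the local background as well as with the fragments. ZNF581 had 64 fragments at 72 h over a background of 4.73, and 64 without Dox over a background of 1.9. At ZNF558 26 fragments stood over a background of 6.51 at 72 h, and 28 over 2.19 without Dox. Fragments were not scaled for depth between the lists, whose lowest background was 1.49 without Dox and 2.01 at 72 h. Without scaling, the fragments at ZNF581 and ZNF558 hardly differed, and the local background was higher at 72 h. At the ZNF580 site bound without Dox the fragments were fewer at 72 h as well. There 30 fragments stood over a background of 6.8 at 72 h, and 54 over 1.78 without Dox.

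**Figure D2:**
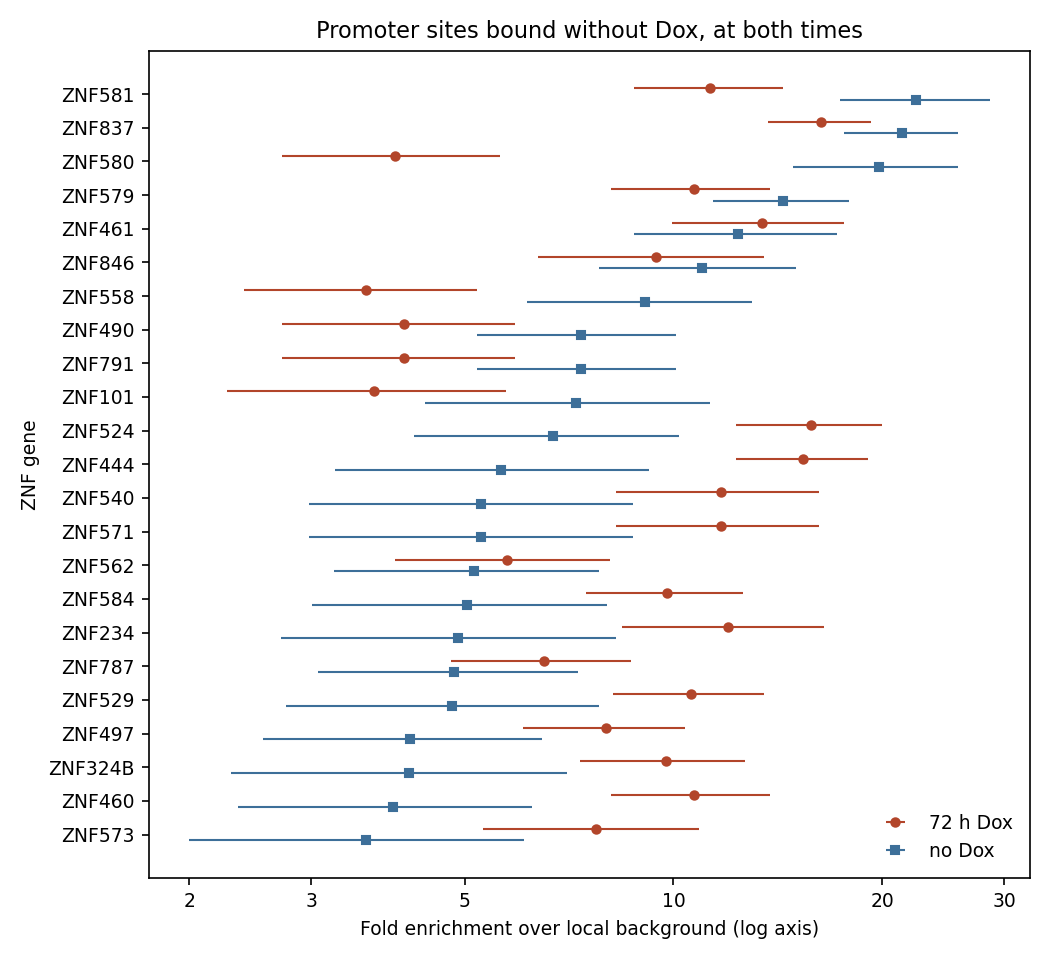
Fold enrichment over local background (log axis) at the promoter sites of the 23 members bound without Dox, with 72 h Dox above no Dox for each gene and 95% Poisson counting intervals as bars. The intervals did not overlap at 9 sites, of which 6 were higher at 72 h and 3 lower, and ZNF580 had the lowest value at 72 h relative to no Dox. This count is not given for all protein-coding genes.

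The members lie along chromosome 19 in clusters, and the question was whether presence at 72 h was even among them. With neighbours joined where the gap was at most 500 kb and at least 5 members, there were 10 clusters and 14 members outside them. At 24 and 48 h no cluster had a member with a promoter peak. At 72 h the share ran from 8.11% in cluster 4 to 84.6% in cluster 6, and the intervals of these clusters did not overlap.

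Cluster 6 (chr19:36182276-37817300, ZNF565 to ZNF573) had a promoter peak at 22 of 26 members at 72 h (84.6%, 65.1 to 95.6) and at 5 without Dox. Cluster 10 (ZNF264 to ZNF446) had one at 30 of 43 members at 72 h and at 5 without Dox. In cluster 7 (ZNF575 to ZNF180) 16 of 23 members had a promoter peak at 72 h, and in cluster 2 (ZNF414 to ZNF846) 10 of 14. Cluster 9 (ZNF628 to ZNF835), which holds the strongest promoter without Dox, had a peak at 10 of 16 members at 72 h and at 6 without Dox. Cluster 8 (ZNF175 to ZNF331) had 19 of 40 at 72 h and 0 without Dox, and cluster 3 (ZNF653 to ZNF791) had 9 of 26 and 2. The small clusters 1 and 5 had 4 of 5 and 3 of 5 at 72 h, and 7 of the 14 members outside clusters had a peak.

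The strongest members at 72 h were ZNF554 in cluster 1, ZNF414 in cluster 2 (fold enrichment 14.0), ZNF564 in cluster 3 (9.42), ZNF254 in cluster 4 (7.37), ZNF181 in cluster 5, ZNF461 in cluster 6 (13.4), ZNF45 in cluster 7, ZNF175 and ZNF614 in cluster 8 (14.9 each), ZNF628 in cluster 9 and ZNF837 in cluster 10. The median fold enrichment at 72 h was lowest in cluster 4 (3.76) and highest in cluster 5 (10.5, over 3 members).

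Cluster 4 (chr19:19668796-24129968, ZNF101 to ZNF254), the large block next to the centromere on the short arm, had a promoter peak at 3 of 37 members at 72 h (8.11%, 1.7 to 21.9). These were ZNF254 (fold enrichment 7.37, 26 fragments), ZNF14 (3.76, 15 fragments) and ZNF101 (3.7, 18 fragments). ZNF101 was also the single member of the cluster bound without Dox. ZNF91, known as a repressor of SVA retrotransposons and named here for that role after the values were seen, lies in this cluster and had no promoter peak in any list.

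**Figure D3:**
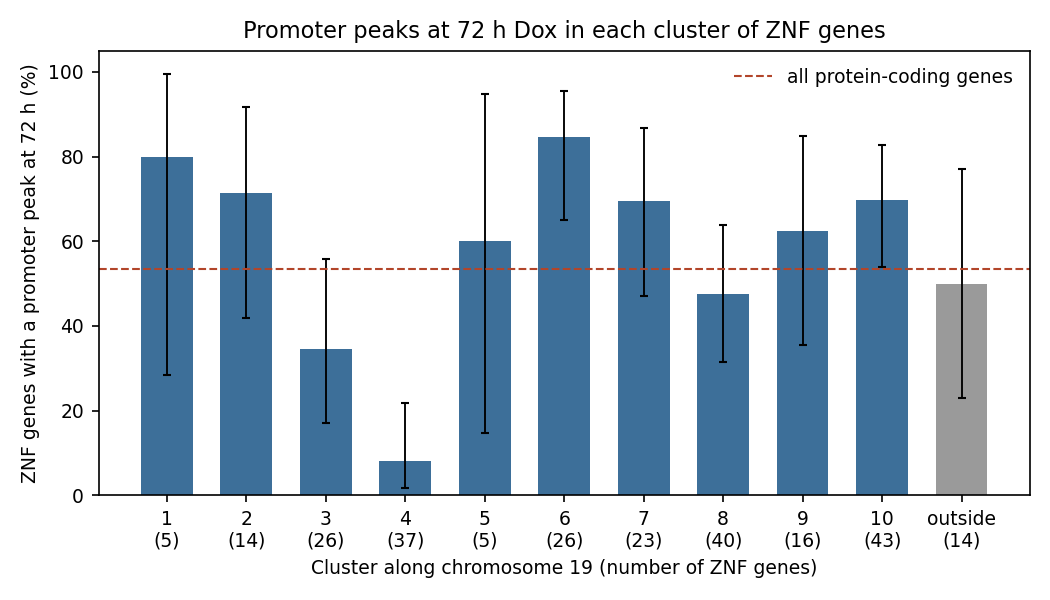
The share of ZNF genes with a promoter peak at 72 h Dox (%) is plotted for the 10 clusters in their order along chromosome 19 and for the 14 genes outside clusters, with 95% exact binomial intervals and the number of genes in brackets. The dashed line is the share over all protein-coding genes, 53.4%; cluster 4 stood at 8.11% and cluster 6 at 84.6%.

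The promoters of cluster 4 also differed in sequence. Sequence was taken at the TSS of the Ensembl canonical transcript, 1 per gene, while a promoter peak could lie at any annotated TSS. Within 250 bp of the canonical TSS the median ratio of observed to expected CpG was 0.449 in cluster 4, against 0.768 over all members. The median GC content was 58.1%, against 61.1%. In cluster 7 it was 57.3%, and 69.6% of the members there had a promoter peak at 72 h. At a GC content of 55 to 60%, 2 of 29 members in cluster 4 and 39 of 63 outside it had a promoter peak at 72 h. The part of GC content in the low share of cluster 4 was not tested. The share of 50-base words within 500 bp of the TSS that occur elsewhere on the chromosome had a median of 0.63% in cluster 4 and of 0.0% over all members. Repeats went with absence among the members. Those with no repeated word numbered 21 of the 23 bound without Dox and at 72 h, 92 of the 110 bound at 72 h alone, 66 of the 116 never bound and 10 of the 34 in cluster 4 without a peak at 72 h. The part of repeats in the low share of cluster 4 was not tested.

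CpG content was related to presence at 72 h over the whole genome. Among all protein-coding genes the share with a promoter peak at 72 h was 12.9% at a CpG ratio under 0.25, 20.0% between 0.25 and 0.5, 53.9% between 0.5 and 0.75, and 71.5% between 0.75 and 1. In its 2 main classes the share in cluster 4 was lower than that of all genes, but each share rests on 1 member with a peak. No counting interval is given for these shares. Of its 25 members between 0.25 and 0.5, 1 had a promoter peak (4.0%), and of its 10 members between 0.5 and 0.75, 1 did (10.0%). The 1 of 25 was ZNF254, whose summit (chr19:24033515) lay far from the canonical TSS (chr19:24087187) where CpG was measured. Outside cluster 4 the members had a peak in 4 of 6, 35 of 68 (51.5%) and 89 of 129 (69.0%) between 0.25 and 0.5, 0.5 and 0.75, and 0.75 and 1. Under 0.25 it was 0 of 2, and at 1 and over 2 of 7 (28.6%), where 76.8% of all genes had one. Among the 4 of 6, ZNF83 and ZNF114 also had their summits over 1 kb from the canonical TSS. At 72 h 127 members had a peak within 1 kb of the canonical TSS, against 133 at any TSS. The part of CpG content in the low share of cluster 4 was not tested.

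**Figure D4:**
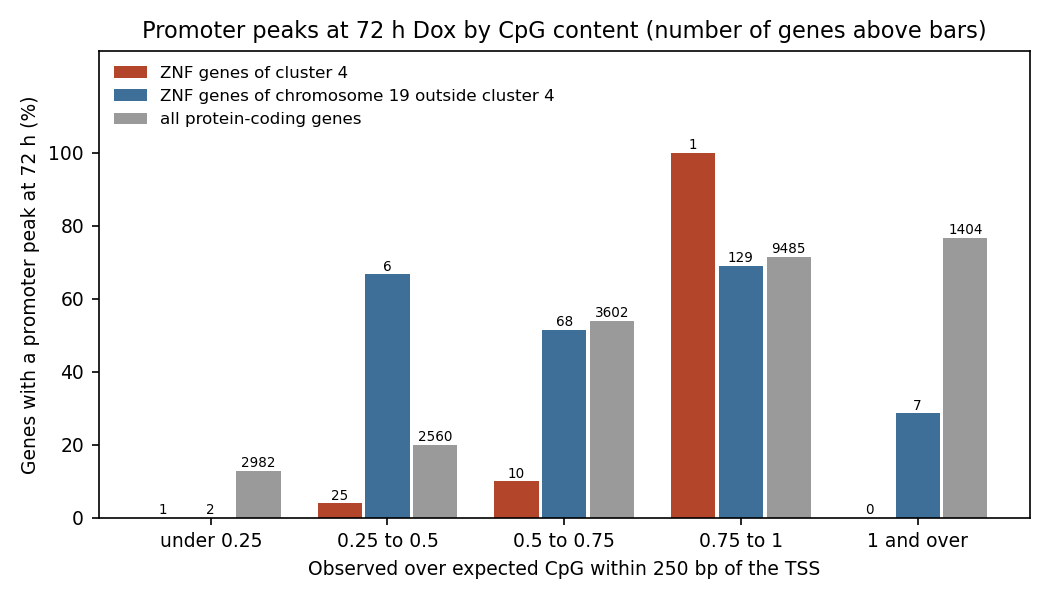
The share of genes with a promoter peak at any TSS at 72 h Dox (%) is plotted by the ratio of observed to expected CpG within 250 bp of the canonical TSS. Bars show ZNF genes of cluster 4, the other ZNF genes of chromosome 19 and all protein-coding genes, with the number of genes above each bar. Between 0.25 and 0.5 the shares were 4.0% of 25 in cluster 4, 66.7% of 6 outside it, and 20.0% of all genes.

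The classes by time differed in the same properties. Members bound without Dox and at 72 h had a median GC content of 66.1% and a CpG ratio of 0.82 at the canonical TSS. Those bound at 72 h alone had 61.3% and 0.794, and those never bound 59.9% and 0.684. The number of fingers, counted as matches to the letter pattern of a C2H2 finger in the encoded protein, had a median of 9 in the class bound without Dox, 13 at 72 h alone and 12 in those never bound. The protein lengths had medians of 531, 594 and 589 residues.

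The next question was whether member promoters carried the motif of TEAD. In windows reaching 100 bp to each side of a summit the TEAD core was found in 0 of the 21 member peaks without Dox, which allows a share of up to 16.1% by the exact interval, and in 3 of the 126 at 72 h (2.38%, 0.494 to 6.8). With 200 bp to each side it was found in 19% of member peaks without Dox and in 12.2% of all promoter peaks, so the order without Dox turned with the window. Among the promoter peaks of all protein-coding genes it was found in 7.02% (no Dox), 42.8% (24 h), 39.0% (48 h) and 10.8% (72 h). In windows of the same width at the TSS of the canonical transcript, 1 per gene, it was found in 3.64% of members and in 2.91% of all protein-coding genes. The share in member peaks at 72 h was thus close to that at start sites in general. The 3 members were ZNF234 (fold enrichment of 12), ZNF432 (11.3) and ZNF611 (6.83). The AP-1 consensus was found at 72 h in 1 of the 126 member peaks (0.794%, 0.0201 to 4.34), that of ZNF235 (7.83). Of all promoter peaks at 72 h, 4.73% had it. Without Dox it was found in 0 of the 21 member peaks (up to 16.1%) and in 3.18% of all promoter peaks.

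Other motifs of promoters were common. The ETS core was found in 10 of 21 member peaks without Dox (47.6%) and in 34.9% at 72 h, where 26.9 and 15.5% of all promoter peaks had it. At the canonical TSS, 41.7% of members had it, against 11.3% of all genes. It was found in 47.4% of the members without a peak at 72 h and in 36.8% of those with one. The ETS core was thus frequent at member start sites with and without a called peak. ZNF genes of other chromosomes were not compared here.

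CCAAT, the core of the NFY motif, was found in 46.6% of member TSS windows, against 25.3% of all TSS windows, and in 30.2% of member peaks at 72 h, against 20.6% of all promoter peaks. At the canonical TSS, CCAAT was found in 55.3% of the members without a peak at 72 h and in 39.1% of those with one. GGGCGG, bound by SP and KLF factors, was found in 50.8% of member peaks at 72 h and 56.8% of all. At the canonical TSS, 65.8% of the members without a peak at 72 h had it, and 46.6% of those with one. The ZNF143 core was found in 8 of the 126 member peaks at 72 h (6.35%, 2.78 to 12.1) and in 4.15% of all promoter peaks. These matches are letters in a window, found on both strands, and no factor other than TAZ was measured.

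At 24 and 48 h, when no member had a promoter peak, a few had a summit in the 3′ exon. Summits in the 3′ exon of the Ensembl canonical transcript, over 1 kb from any TSS, were found in no member without Dox, in 1 at 24 h (0.402%), in 5 at 48 h (2.01%) and in 7 at 72 h (2.81%). The same count over the 18916 protein-coding genes with more than 1 exon was 14 (0.074%), 18 (0.0952%), 126 (0.666%) and 384 (2.03%) in the order of the times. The 3′ exons of members are long, with a median of 3338 bp, against 1412 bp over all genes. Per Mb of 3′ exon the members had 5.4 summits at 48 h (1.75 to 12.6) and 7.56 at 72 h (3.04 to 15.6), and all genes had 3.18 and 9.87. The intervals of the members included the values of all genes.

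ZNF565, at one end of cluster 6, was the member called earliest and most strongly. Its fold enrichment in the 3′ exon (chr19:36182276-36183733) reached 6.02 (3.65 to 9.43) by 24 h, 6.98 (5.15 to 9.27) by 48 h and 19.3 (15.8 to 23.4) by 72 h, from 17, 46 and 104 fragments. The summit lay at position 958, 954 and 891 of the 1458 bp exon, within its 1265 coding bases, and 8990 bp from the nearest TSS at 72 h. No peak was called in this exon without Dox. The value at 72 h exceeded those at 24 and 48 h beyond the counting intervals, in single libraries, while the intervals at 24 and 48 h overlapped.

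ZNF607, in the same cluster, had fold enrichments of 6.51 at 48 h (4.26 to 9.55) and 11.1 at 72 h (7.72 to 15.4). ZNF121 had 5.41 and 6.53, ZNF562 had 5.58 and 4.91, and ZNF714 had 4.74 and 5.54 at 48 and 72 h. The intervals at the pair of times overlapped in each of these members. ZNF699 (7.65) and ZNF283 (4.33) were called at 72 h alone. All of these summits lay in the coding part of the exon. ZNF490 also had a summit in its 3′ exon, at 48 h (5.65) and 72 h (5.73), in the untranslated part and 654 and 555 bp from a TSS, and it was left out of the count for that reason.

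**Figure D5:**
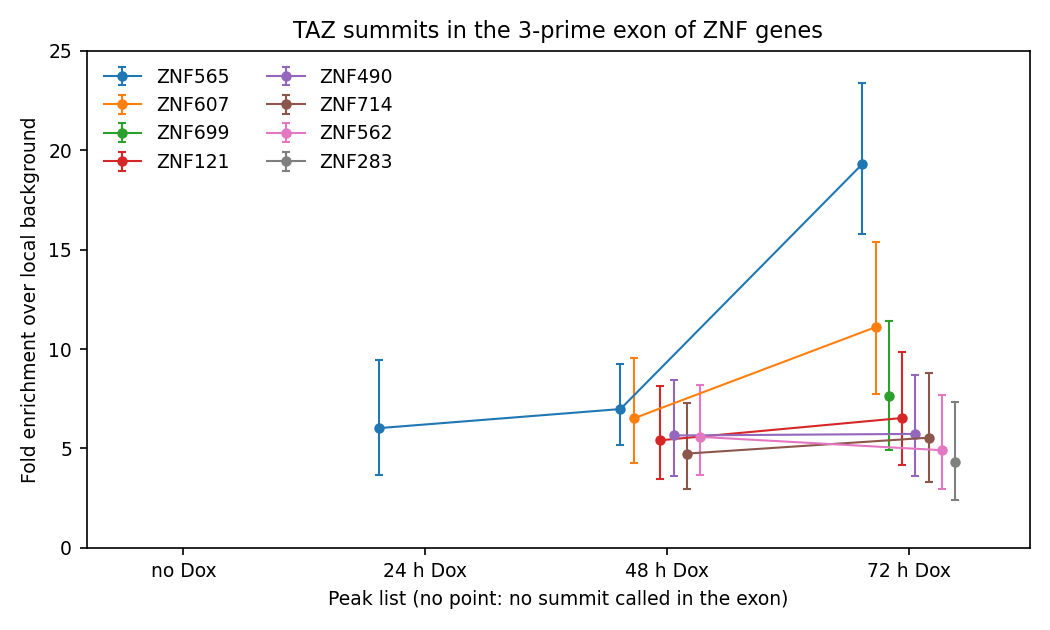
Fold enrichment over local background at summits in the 3′ exon of 8 ZNF genes, by peak list from no Dox to 72 h Dox, with 95% Poisson counting intervals as bars and lines joining the values of a gene. ZNF565 had 6.02, 6.98 and 19.3 at 24, 48 and 72 h; no gene has a point without Dox, and ZNF490 lies within 1 kb of a TSS.

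The TEAD core was frequent in the 3′ exons of ZNF genes, bound or not. In the members it occurred in 183 of 249 exons (73.5%) at 0.652 per kb, with a median of 2 per exon and a highest number of 18. In the ZNF genes of other chromosomes it occurred in 63.3% of 3′ exons at 0.378 per kb, and 6 of those 167 exons had a summit at 72 h (3.59%). Over all protein-coding genes it occurred in 35.0% of 3′ exons at 0.277 per kb. Of the 183 member exons with the core, 6 had a summit at 72 h (3.28%), and of the 6620 such exons of all genes 267 did (4.03%).

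Exons with many copies were called more often than exons with the core in general, but exon length was not taken into account. With 5 or more copies, 6 of 46 member exons (13%) and 29 of 203 exons of all genes (14.3%) had a summit at 72 h. In the ZNF genes of other chromosomes 1 of 16 such exons did (6.25%). All 6 member exons with the core and a summit at 72 h were in this group, and the other bound exon, that of ZNF714, had 0 copies. Most member exons that hold the core, 40 of the 46 with 5 or more copies included, had no called peak. ZNF565 has 6 copies, ZNF607 and ZNF121 have 7, ZNF562 has 8, ZNF283 has 9 and ZNF699 has 12.

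The summits lay near a copy. The nearest TEAD core was 22 bp from the 72 h summit in ZNF565, 10 bp in ZNF607, 25 bp in ZNF699, 40 bp in ZNF121, 2 bp in ZNF562 and 61 bp in ZNF283. Each exon holds several copies, and the distances are given as a description. Around the summits of ZNF565, ZNF607, ZNF699, ZNF121 and ZNF283, 0.0% of 50-base words recurred elsewhere on the chromosome. The share was 53.3% around the 72 h summit of ZNF562 and 13.2% around that of ZNF714. Where the other copies of these words lie was not examined, and the part of repeats in these values was not tested.

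The proteins that work with KRAB zinc finger proteins are encoded outside the clusters, and they were counted in the same way. Of 22 genes of the co-repressor machinery, 4 had a promoter peak without Dox and 19 at 72 h, and at 24 and 48 h none did. The shares over all protein-coding genes were 8.45, 1.54, 5.11 and 53.4% from no Dox to 72 h, so in a list this short a count of 0 at 24 and 48 h does not set it apart. TRIM28, the co-repressor that binds the KRAB domain, had a fold enrichment of 3.22 at 72 h, and SETDB1, which methylates histone H3 at lysine 9, had 5.45. The heterochromatin proteins CBX5, CBX3 and CBX1 had 12.5, 9.7 and 4.79 at 72 h, and the chromatin remodeller CHD4 had 10.9. The subunits MPHOSPH8, TASOR and PPHLN1 of the HUSH complex, which silences integrated elements, had 6.42, 5.93 and 4.19, and MORC2, which works with it, had 7.91.

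The 4 bound without Dox were CBX3 (9.7 at 72 h, 5.48 without Dox), SMARCAD1 (7.84 and 5.64), DNMT1 (6.43 and 4.0) and UHRF1, with 7.59 without Dox and no promoter peak at 72 h. DNMT1 and UHRF1 act together in maintaining DNA methylation. ATRX and DAXX, which deposit the histone variant H3.3 in heterochromatin, had no promoter peak in any list. The others, ATF7IP (4.47), MORC3 (4.98), CHD3 (4.9), HDAC1 (4.71), HDAC2 (4.97), RBBP4 (7.23) and RBBP7 (3.32), were called at 72 h alone.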

How the data were processed

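According to the study's methods and the submitters' processing notes, the authors mapped the reads to hg38 with BWA and used MACS2 to call peaks (false discovery rate 0.01). The sources used here give no version of either tool. The deposited lists hold, for each peak, the fold enrichment over local background (a ratio) and −log10 of the p-value and of the q-value, computed by the authors. They hold no total read numbers. Fragments over each summit and their background were solved here from the fold enrichment and p-value, and 100% of the peaks had a solution. Files were read with Python 3.11.15, numpy 2.4.6, pandas 2.3.3 and scipy 1.17.1, and figures drawn with matplotlib 3.10.9. Coordinates are 1-based. The search for repeats counted 50-base words on chromosome 19.

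The 8 libraries were grouped by their labels. The 4 lists, each from 1 TAZ library, were compared by counts with 95% exact binomial (Clopper-Pearson) intervals, without a test. Members and lists were chosen with earlier results of these data known. Genes named are the members strongest in each list and cluster, those with a summit in the 3′ exon, a TEAD or AP-1 match or a summit just inside or outside 1 kb, and the machinery list. ZNF14, ZNF91, ZNF540, ZNF460, ZNF529, ZNF324B and the genes of the closing section were named after their values were seen. Alternatives were other windows, start sites, thresholds, a depth scaling, exon sets and gap rules. The scripts were tested on simulated data.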

Additional observations from a re-analysis of the deposited data

How the results depend on the processing

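Of the alternatives to the promoter, strength, recall, exon, cluster and motif results, 69 stayed within 1.5 times a count or within the counting interval of a share or median, and 7 did not. With −log10 q of at least 5, members with a promoter peak without Dox numbered 15 (23 as reported), and 14 of the 15 were called again at 72 h under the same threshold. With a window of 3 kb, 2 members had a promoter peak at 24 h and 4 at 48 h, where 0 had one within 1 kb. Shares of all protein-coding genes are not given for this threshold or window, so members are not set against all genes there. With windows reaching 200 bp to each side the TEAD core was found in 19% of member promoter peaks without Dox (12.2% of all promoter peaks). At 72 h it was found in 5.56% (13.9% of all), and the AP-1 consensus in 1.59% (7.25% of all). With windows reaching 50 bp to each side the ETS core was found in 23.8% of member peaks both without Dox and at 72 h. Of all promoter peaks, 17.4% had it without Dox and 9.66% at 72 h. At 72 h the count of members lay between 113 (promoters shared with other genes left out) and 134. At 24 and 48 h it stayed at 0 in all alternatives but the 3 kb window. No paired analysis was possible because each condition had a single TAZ library. Single libraries set the limit on every difference between times, and the number of peaks differed widely among the lists.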

Other observations

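Some zinc finger genes of chromosome 19 have other symbols, and 1 of them had a promoter peak at 24 h and 1 at 48 h. Among 19 genes whose symbols start with ZFP, ZSCAN, ZBTB, ZIM, ZIK1 or PEG3, 8 had a promoter peak at 72 h (42.1%, 20.3 to 66.5) and 2 without Dox (10.5%, 1.3 to 33.1), where 53.4 and 8.45% of all protein-coding genes did. These genes are named here after their values were seen. ZSCAN22, which lies within cluster 10, had fold enrichments of 34.3 (no Dox), 5.23 (24 h) and 39.5 (72 h). For ZBTB45 the values were 37.8 (no Dox), 7.61 (48 h) and 22.4 (72 h). Both exceeded the strongest ZNF promoter of chromosome 19 without Dox (ZNF581, 22.4) and at 72 h (ZNF554, 20.2). The other 6, called at 72 h alone, were ZBTB7A (18.3), ZFP14 (11), ZSCAN5A (8.39), ZFP30 (6.53), ZIK1 (6.52) and ZFP36 (5.82). ZFP36 encodes the RNA-binding protein tristetraprolin, whose fingers are of the CCCH and not the C2H2 kind, and it entered by its symbol.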
